A study of Homo sapiens with 6 samples.

Results

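The transcription factors that drive epithelial-to-mesenchymal transition (EMT), the E- and N-cadherin genes, the vimentin gene and the epithelial factor GRHL2 were followed in breast cancer cells depleted of CRP2. These genes were taken by symbol from the table of raw counts: SNAI1, SNAI2, ZEB1, ZEB2, TWIST1, TWIST2, CDH1, CDH2, VIM and GRHL2, 10 of the 58395 genes in it. Of these, 8 had enough counts to be among the 23806 genes tested (those detected in 2 or more libraries of a group of 3), while TWIST1 and TWIST2 had none. The cells are MDA-MB-231, an invasive, mesenchymal-like line derived from a breast adenocarcinoma, grown in culture. The siCSRP2 group (3 libraries) received an siRNA against CSRP2, the gene of the actin-bundling protein CRP2, and the siCTR group (3 libraries) a non-targeting siRNA. Both groups were plated and transfected alike and were harvested 65 hours after transfection according to the labels. According to the study's methods, one siRNA, siCRP2#a, was used for sequencing, and siRNAs against CRP2 and control siRNAs came from different suppliers. Effects of CRP2 loss, of that siRNA sequence on other mRNAs and of the supplier therefore cannot be told apart. Column names carry a code (0412, 0611 or 1311) that 1 library of each group shares, and libraries are named here by group and code.

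During EMT, epithelial cells loosen their junctions and gain motility. The SNAI, ZEB and TWIST proteins act in the nucleus where they bind E-boxes in target promoters, that of CDH1 among them, and repress transcription through recruited corepressors. E-cadherin, encoded by CDH1, holds epithelial cells together, N-cadherin (CDH2) and the intermediate filament protein vimentin (VIM) mark the mesenchymal state, and GRHL2 keeps epithelial genes on and opposes ZEB1.

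The depth ran from 18346442 to 39115778 counts in siCSRP2 libraries and from 17336798 to 25321830 in siCTR libraries, so that 1 count is worth 0.0256 to 0.0582 CPM (counts scaled to the library total, with TMM factors). The targeted gene CSRP2 had 2.17, 1.78 and 1.89 CPM in siCSRP2 libraries, against 13.7, 11.7 and 11.4 CPM in siCTR libraries, which is -2.66 on the log2 scale (standard error 0.178, adjusted p = 2.42e-08, edgeR quasi-likelihood test). Of the marker lists, CD44, CAV1, MSN and the other 4 markers of mesenchymal-like breast lines were all detected, with a summed level of 4520 to 5300 CPM in siCSRP2 and 5070 to 6440 CPM in siCTR libraries. Of the luminal markers, PGR was at 0 and ESR1 and FOXA1 near 0, while GATA3 averaged 13.99 CPM in siCSRP2 and 14.79 CPM in siCTR libraries and XBP1 133 CPM in siCSRP2 and 109 CPM in siCTR libraries (called higher, adjusted p = 0.0244, a call lost in 6 alternatives). Of the markers of other cell types, PTPRC, CDH5 and DCN were near 0, and CD14, PECAM1 and PDGFRB were detected and lower in siCSRP2 libraries, with values given beside the lists.

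SNAI1 mRNA was lower after CRP2 depletion, and CDH1 and CDH2 mRNA were both higher. The other tested genes (SNAI2, ZEB1, ZEB2, VIM and GRHL2) were not called. Thus 2 of the 8 genes tested were called higher (25%), beside 12.5% of all genes tested, and 1 was called lower (12.5%), beside 11.5%. Of the 14858 protein-coding genes tested, 2852 were higher and 2369 lower. The siCSRP2 and siCTR libraries did not overlap for SNAI1, CDH1, CDH2 and GRHL2, 4 of the 8 tested, beside 37.4% of all genes tested. GRHL2 was barely detected and passed the filter through its siCTR libraries only, so its separation was partly set by the filter. Calls were made where the Benjamini-Hochberg adjusted p of the quasi-likelihood test, adjusted across the 23806 genes, was under 0.05.

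**Figure D1:**
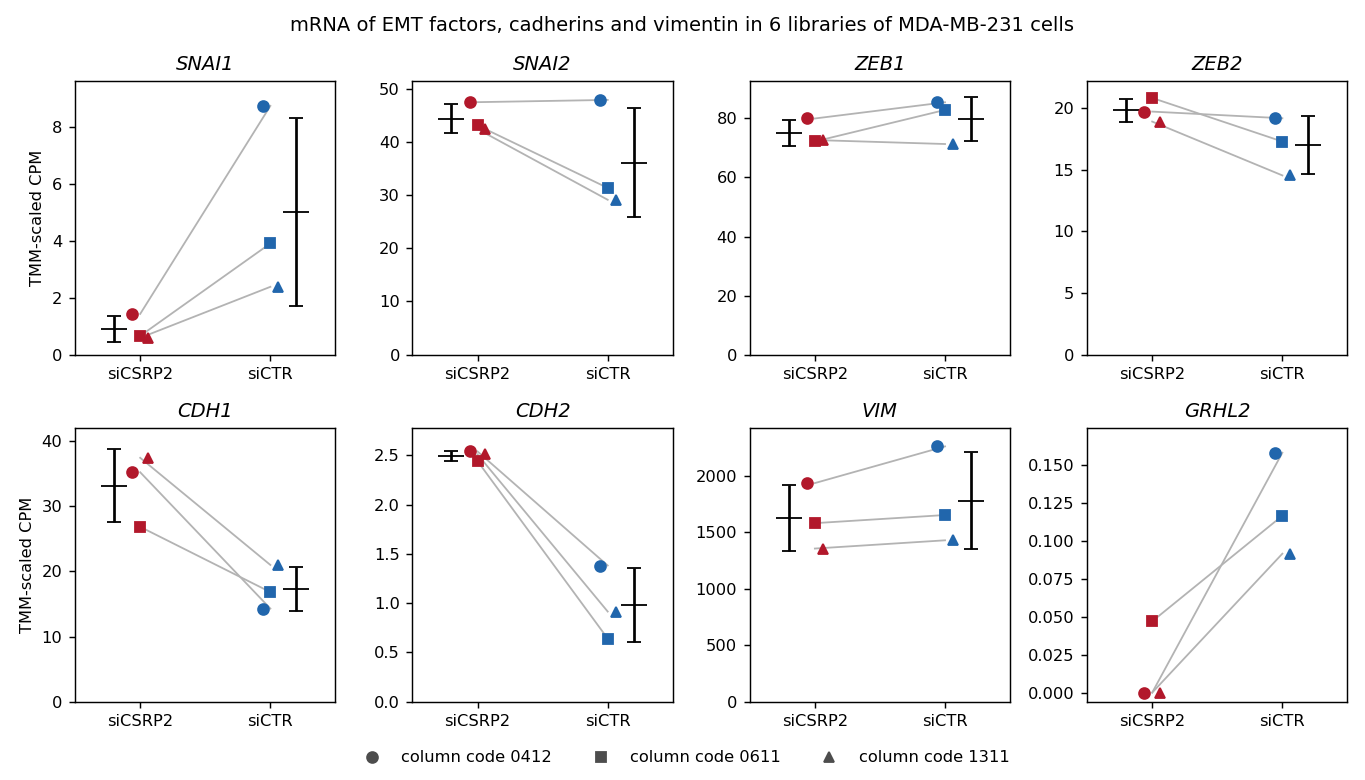
TMM-scaled CPM of the 8 detected genes, with a separate linear axis for each gene, siCSRP2 libraries at the left in red and siCTR libraries at the right in blue. Marker shapes give the column code, grey lines join libraries that share a code, and black bars give the mean ± SD of the 3 libraries (not drawn for GRHL2, which had 0 to 4 counts). SNAI1 is at 0.589 to 1.43 CPM in the siCSRP2 libraries and at 2.38 to 8.73 CPM in the siCTR libraries, and CDH1 and CDH2 are separated the other way.

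SNAI1, on chromosome 20 of GRCh38 (49982980 to 49988886, plus strand), encodes Snail, a short-lived zinc-finger repressor of CDH1. Its mRNA stood at 1.43, 0.657 and 0.589 CPM in siCSRP2 libraries 0412, 0611 and 1311, against 8.73, 3.90 and 2.38 CPM in the siCTR libraries with these codes. Every siCSRP2 library was below every siCTR library, although SNAI1 also varied 3.67-fold between the highest and the lowest siCTR library. The log2 fold change was -2.57 (standard error 0.637, adjusted p = 0.0355), from 64 counts in siCSRP2 against 340 in siCTR libraries. Within the codes, the difference in log2 CPM was -2.54 for 0412, -2.43 for 0611 and -1.87 for 1311, so that all 3 pairs went down. Blocked by code, the fold change was -2.41 (standard error 0.216, adjusted p = 2.7e-27). The p-values of that fit for these genes rest on a spread shared over genes, not on each gene's own, and can be too small. The call was lost when siCSRP2 0611 (log2 fold change -2.46, adjusted p = 0.102), siCSRP2 1311 (-2.31, 0.129) or siCTR 0611 (-2.71, 0.0535) was left out, and without siCTR 0412, the highest library, it was -1.88 (adjusted p = 0.00081). In RNA from a whole culture, fewer SNAI1-expressing cells and less SNAI1 mRNA per cell cannot be told apart.

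SNAI2 (Slug), the paralog of SNAI1 on chromosome 8 (48917598 to 48921740, minus strand), was not called lower with it. It had 47.5, 43.1 and 42.4 CPM in siCSRP2 libraries, against 47.9, 31.3 and 29.1 CPM in siCTR libraries. The siCTR 0412 library exceeded every siCSRP2 library, so the groups overlapped, while the other siCTR libraries lay below all of them. The log2 fold change was 0.29 (standard error 0.173, adjusted p = 0.276). With the code as a replicate block it was 0.33 (standard error 0.0783, adjusted p = 0.000152), and without siCTR 0412 it was 0.55 (adjusted p = 0.000893), past the threshold in each case. Within the codes the difference was -0.01 for 0412, 0.46 for 0611 and 0.54 for 1311 on the log2 scale. Per length of merged exons, the ratio of the SNAI2 level to the SNAI1 level was 17.3, 34.1 and 37.4 in siCSRP2 libraries, against 2.85, 4.17 and 6.36 in siCTR libraries. The ratios of the 2 groups did not overlap, but SNAI1 alone already separated the groups, so the ratios are no further result.

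ZEB1, on chromosome 10 (31318495 to 31529814, plus strand), which encodes a zinc-finger and homeodomain repressor of CDH1 and of the miR-200 genes, had 80.0, 72.2 and 72.7 CPM in siCSRP2 libraries, against 85.5, 82.9 and 71.3 CPM in siCTR libraries. The libraries were interleaved, and the log2 fold change was -0.09 (standard error 0.0932, adjusted p = 0.532). ZEB2, its paralog on chromosome 2 (144364364 to 144521057, minus strand), had 19.7, 20.8 and 18.9 CPM in siCSRP2 libraries, against 19.2, 17.3 and 14.6 CPM in siCTR libraries. The groups overlapped by the siCTR 0412 library and the log2 fold change was 0.22 (standard error 0.128, adjusted p = 0.252). Blocked by code, ZEB2 was at 0.23 (standard error 0.0954, adjusted p = 0.0443), past the threshold, and the 3 pairs differed by 0.04, 0.27 and 0.38 on the log2 scale. The fit with the block therefore called 4 of the 8 members tested higher (CDH1, CDH2, SNAI2 and ZEB2), beside 19.5% of all genes tested. It called 1 lower (SNAI1), beside 17.8%.

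The antisense genes that share exonic bases with ZEB1 and ZEB2 were also counted. ZEB1-AS1, whose exons overlap those of ZEB1 by 396 bases, had 260 counts in siCSRP2 and 271 in siCTR libraries (log2 fold change -0.31, adjusted p = 0.324). ZEB2-AS1, which overlaps ZEB2 by 1299 exonic bases, had 0 counts in all 6 libraries. Which strand setting was used for the count is not given in the sources used here, so reads of a gene and of an antisense partner might not be separated.

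ZEB1 and ZEB2 mRNAs are known targets of the miR-200 family, small RNAs of epithelial cells, and the sequences show how densely the 3′ UTRs of both are matched by its seeds. The mature miRNAs from RefSeq (GRCh38.p14) follow 5′ to 3′, with the seed (bases 2 to 8) in capitals, and the family falls into 2 seed groups. The seed of miR-205-5p, another miRNA of epithelial cells, is its own. The sites are 24 bases around a seed match, in capitals, in the 3′ UTR of the canonical transcript.
hsa-miR-200a-3p: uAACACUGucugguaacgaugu
hsa-miR-141-3p: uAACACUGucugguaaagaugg
hsa-miR-200b-3p: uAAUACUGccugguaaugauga
hsa-miR-200c-3p: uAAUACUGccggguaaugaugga
hsa-miR-429: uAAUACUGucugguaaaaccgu
hsa-miR-205-5p: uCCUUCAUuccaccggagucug
ZEB1 site for miR-200b, miR-200c and miR-429: cttcaaacctggCAGTATTaatac
ZEB1 site for miR-200a and miR-141: gatttgatttaaCAGTGTTatgtt
ZEB2 site for miR-200b, miR-200c and miR-429: actaccatacatCAGTATTtttat
ZEB2 site for miR-200a and miR-141: aaaaattttgtaCAGTGTTaaggc

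The match CAGTATT occurred 6 times in the ZEB1 and 5 times in the ZEB2 3′ UTR, and 18.0% of the 14858 protein-coding genes tested had it at least once. CAGTGTT occurred 3 times in ZEB1 and 4 times in ZEB2, beside 20.3% of these genes with a match. In the other 8 genes, SNAI2 had 1 CAGTATT, GRHL2 had 1 CAGTGTT and the rest had neither. ATGAAGG, the match of miR-205-5p, occurred 1 time in ZEB1 and in no other of the 10. The loci of these miRNAs gave almost no counts. MIR200A, MIR200B, MIR200C, MIR141 and MIR205 were at 0 in all 6 libraries, MIR429 had 2 counts in siCSRP2 and 0 in siCTR libraries, and the host gene MIR200CHG had 1 count in siCSRP2 and 0 in siCTR libraries. Mature miRNAs are not captured in mRNA libraries, so their levels were not measured.

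TWIST1 and TWIST2, basic helix-loop-helix factors of mesoderm that also induce EMT, had 0 counts in every library. A count of 0 allows up to 3 counts, which is 0.0768 to 0.159 CPM in siCSRP2 and 0.118 to 0.175 CPM in siCTR libraries. The lncRNA ENSG00000232821, antisense to TWIST1 over 141 exonic bases, was also at 0. TWIST1 lies on chromosome 7 (19020991 to 19117636, minus strand) and TWIST2 on chromosome 2 (238848032 to 238910534, plus strand) of GRCh38.

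CDH1, the E-cadherin gene on chromosome 16 (68737292 to 68835537, plus strand), was detected in every library. It had 35.2, 26.9 and 37.5 CPM in siCSRP2 libraries, against 14.3, 16.8 and 21.0 CPM in siCTR libraries. The lowest siCSRP2 library was above the highest siCTR library. CDH1 averaged 33.2 ± 5.59 CPM in siCSRP2 and 17.4 ± 3.38 CPM in siCTR libraries (SD, n = 3 each), a 1.91-fold difference (log2 fold change 0.94, standard error 0.158, adjusted p = 0.000652). Within the codes the difference was 1.30 for 0412, 0.67 for 0611 and 0.83 for 1311 on the log2 scale. Every alternative fit called CDH1 higher, with log2 fold changes of 0.81 to 1.10. The lncRNA ENSG00000260798, antisense to CDH1 over 347 exonic bases, was at 0.

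CDH2, the N-cadherin gene on chromosome 18 (27932879 to 28177946, minus strand), was higher as well. It had 2.54, 2.44 and 2.51 CPM in siCSRP2 libraries, against 1.38, 0.641 and 0.915 CPM in siCTR libraries. The siCSRP2 libraries lay within 1.04-fold of each other and above every siCTR library, while siCTR libraries varied 2.16-fold. The log2 fold change was 1.31 (standard error 0.288, adjusted p = 0.00274), from 198 counts in siCSRP2 against 66 counts in siCTR libraries, and all alternative fits called it higher (1.11 to 1.66). The differences within the codes were 0.84, 1.8 and 1.38. A lncRNA antisense to CDH2, ENSG00000227279, with 307 shared exonic bases, moved with it, with 74 counts in siCSRP2 against 20 in siCTR libraries (log2 fold change 1.48, adjusted p = 0.0145). The part of that RNA in the CDH2 counts was not tested.

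The ratio of CDH1 to CDH2, per length of merged exons, was 19.6, 15.5 and 21.1 in siCSRP2 libraries, against 14.6, 37.1 and 32.4 in siCTR libraries. The groups overlapped, and CDH1 exceeded CDH2 in every library of both groups. Of the other cadherin genes in the lists below, picked after their values were seen, none was called higher. CDH11 averaged 242 CPM in siCSRP2 and 438 CPM in siCTR libraries (log2 fold change -0.859, adjusted p = 4.04e-06, edgeR), called lower. CDH3 (-0.966, 0.00621), CDH4 (-0.565, 0.00188) and CDH24 (-0.431, 0.0293) were called lower too. CDH5, CDH13 and CDH15 were near 0 and not called, and CDH6 had 0 counts.

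VIM, the vimentin gene on chromosome 10 (17228241 to 17237593, plus strand), was not called in either direction. It had 1937, 1582 and 1357 CPM in siCSRP2 libraries, against 2262, 1654 and 1430 CPM in siCTR libraries. The order of the codes was the same in both groups and the ranges overlapped widely. The log2 fold change was -0.13 (standard error 0.201, adjusted p = 0.706), and it was -0.12 (adjusted p = 0.137) with the code as a replicate block. Within each code the siCSRP2 library was the lower one, with differences of -0.22, -0.06 and -0.08 in log2 CPM. Without siCTR 0412 the fold change was 0.075 (adjusted p = 0.733), on the other side of 0. VIM-AS1, which overlaps VIM by 656 exonic bases, had 424 counts in siCSRP2 and 415 in siCTR libraries (adjusted p = 0.41).

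GRHL2, a grainyhead factor of epithelial cells on chromosome 8 (101492439 to 101669726, plus strand), was barely detected. The counts were 0, 1 and 0 in siCSRP2 libraries, against 4, 2 and 2 in siCTR libraries. The ratio of the summed counts, scaled by depth, was 0.101 with an exact 95% interval of 0.00229 to 0.757, which covers counting error only. The groups did not overlap, but GRHL2 was not called (adjusted p = 0.0756, edgeR). It passed the filter through its siCTR libraries only. Without siCSRP2 0611, its only siCSRP2 library with a count, the group is at 0 by that choice of library, and the adjusted p of 0.0477 there adds nothing.

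**Figure D2:**
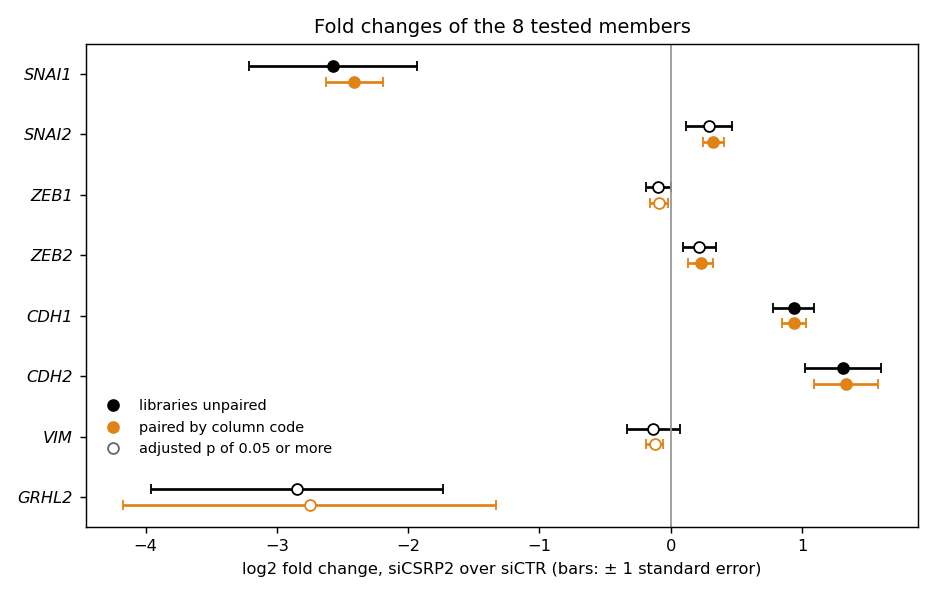
Log2 fold changes (siCSRP2 over siCTR) of the 8 tested genes, by edgeR with libraries unpaired (black) and with the column code as a replicate block (orange), with bars of 1 standard error and open symbols at an adjusted p of 0.05 or more. SNAI1 is at -2.57 unpaired with a standard error of 0.637, against 0.216 with the block, and SNAI2 and ZEB2 are filled in orange only.

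Among the siCTR libraries, 0412 was the highest for SNAI1, SNAI2, ZEB1, ZEB2, CDH2, VIM and GRHL2 and the lowest for CDH1. The margin was small for ZEB1 (85.5 against 82.9 CPM in siCTR 0611), and GRHL2 was barely detected. Library 0412 of siCSRP2 was likewise the highest of its group for SNAI1, SNAI2, ZEB1, CDH2 and VIM, for CDH2 by little. The rank was thus shared by the code for these genes, and not particular to siCTR. The TMM factor and the total of siCTR 0412 lay within the range of the other 5 libraries. Across 10827 genes, libraries of the same code deviated together from their group means (Pearson's r of 0.723 for 0412, 0.459 for 0611 and 0.744 for 1311, a correlation across genes). What the codes stand for is not explained in the labels.

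Levels of different genes can be compared only per length. Per kilobase of merged exons, VIM had 314 ± 56.5 CPM per kb in siCSRP2 and 344 ± 83.2 in siCTR libraries (SD, n = 3 each), above every other gene. SNAI2 followed at 13.5 and 11 CPM per kb in siCSRP2 and siCTR libraries, then ZEB1 at 8.66 and 9.24. CDH1 had 5.46 CPM per kb in siCSRP2 and 2.86 in siCTR libraries, and SNAI1 0.523 in siCSRP2 and 2.93 in siCTR libraries. In siCTR libraries the ranges of SNAI1 (1.40 to 5.12) and CDH1 (2.35 to 3.46) overlapped, so that their order there is not settled, and those of SNAI2 and ZEB1 did too. In siCSRP2 libraries the ranges of CDH1 (4.42 to 6.16) and SNAI1 (0.345 to 0.838) were apart. ZEB2 had 0.758 CPM per kb in siCSRP2 and 0.651 in siCTR libraries, CDH2 0.291 and 0.114, and GRHL2 0.00258 and 0.0202. The ZEB2 range in siCSRP2 libraries (0.723 to 0.797) lay within that of SNAI1. With the length of the canonical transcript in place of merged exons, ZEB2 in siCSRP2 libraries (2.04 to 2.25) was above the SNAI1 range there. The mean of CDH1 then exceeded that of SNAI1 in siCTR libraries (3.61 against 2.93), and that of CDH2 exceeded SNAI1 in siCSRP2 libraries (0.622 against 0.523), but the ranges overlapped in both cases and the order is not settled.

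**Figure D3:**
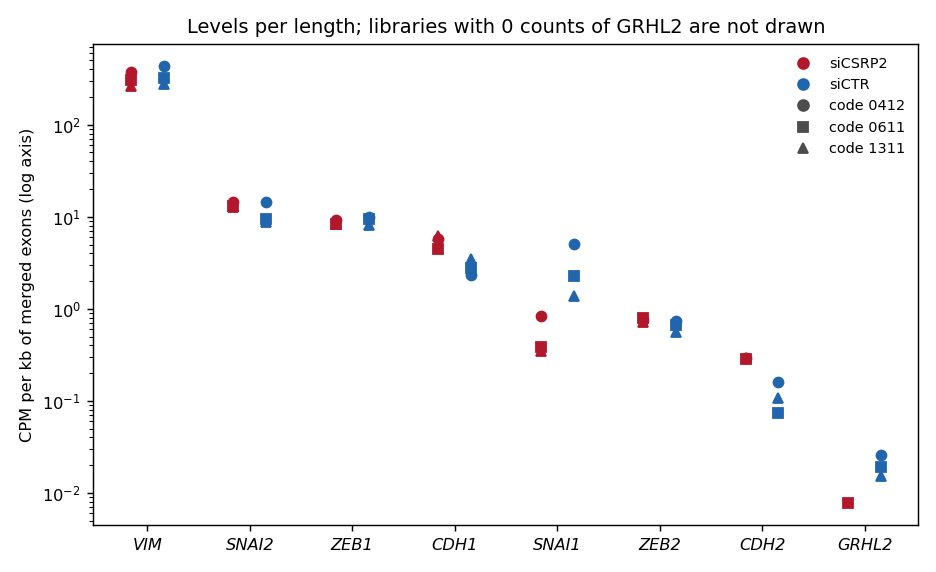
CPM per kilobase of merged exons of the 8 detected genes on a log axis, siCSRP2 in red and siCTR in blue, 1 point per library. VIM stands above all others in both groups at 262 to 437 CPM per kb, and SNAI1 lies below CDH1 in siCSRP2 libraries and overlaps it in siCTR libraries. Marker shapes give the code, and the 2 libraries without a GRHL2 count are not drawn.

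As a share of the VIM level per length, CDH1 was 1.55%, 1.45% and 2.35% in siCSRP2 libraries, against 0.538%, 0.867% and 1.25% in siCTR libraries. The shares did not overlap between the groups, but CDH1 alone already separated them, so the shares are no further result. The CDH1 level stayed far below that of VIM in all 6 libraries.

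The E-box CAGGTG, or CACCTG on the other strand, is the element that SNAI and ZEB proteins bind, and CANNTG covers every E-box. RefSeq promoter windows (GRCh38.p14, 250 bases before to 50 after the start) were at hand for ZEB1, ZEB2, TWIST2, CDH2 and VIM, with none for SNAI1, SNAI2, TWIST1, CDH1 and GRHL2. Of all 35116 promoters, 20.6% held CAGGTG or CACCTG and 68.7% any CANNTG. Of the genes that were called, CDH2 has such windows, for 2 starts, and neither holds CAGGTG or CACCTG. The upstream one (chr18:28177081-28177380, minus strand) has no CANNTG at all, and the other (chr18:28036592-28036891, minus strand) has 1, in capitals. The windows of ZEB2, TWIST2 and VIM do not hold CAGGTG or CACCTG either. ZEB1 has several windows, and most of them hold none. The richest has 3 copies of CAGGTG or CACCTG (chr10:31318966-31319265, plus strand) and is shown for contrast with these boxes in capitals.
CDH2, upstream start: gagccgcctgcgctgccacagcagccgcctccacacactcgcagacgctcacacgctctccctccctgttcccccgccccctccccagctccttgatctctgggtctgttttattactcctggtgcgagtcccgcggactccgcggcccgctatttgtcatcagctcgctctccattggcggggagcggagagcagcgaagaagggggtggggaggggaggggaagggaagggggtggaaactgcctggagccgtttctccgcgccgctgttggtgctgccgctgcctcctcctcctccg
CDH2, downstream start: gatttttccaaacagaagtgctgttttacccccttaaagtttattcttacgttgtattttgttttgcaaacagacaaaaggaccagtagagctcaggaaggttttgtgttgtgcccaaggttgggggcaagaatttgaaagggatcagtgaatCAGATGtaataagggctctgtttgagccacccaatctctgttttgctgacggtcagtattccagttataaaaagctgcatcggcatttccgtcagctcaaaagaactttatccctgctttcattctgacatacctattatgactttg
ZEB1, start with 3 boxes: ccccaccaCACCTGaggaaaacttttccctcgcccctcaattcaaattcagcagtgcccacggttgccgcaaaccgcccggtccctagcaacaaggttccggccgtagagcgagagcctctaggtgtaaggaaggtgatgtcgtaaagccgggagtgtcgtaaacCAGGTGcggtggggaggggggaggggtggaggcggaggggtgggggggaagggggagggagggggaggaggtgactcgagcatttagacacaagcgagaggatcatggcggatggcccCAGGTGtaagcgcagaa

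Binding of the factors was not measured here, and a match or its lack is a description of these letters. The heptamer GCCTCAC was picked earlier from these same fold changes, so its shares by call restate that choice and are a description. It occurred in the canonical transcript of 46.5% of the genes called lower, 11.9% of those called higher and 23.9% of all protein-coding genes tested. SNAI1, the member called lower, does not hold it, and of the 10 genes only GRHL2 does. The shorter CCTCAC is held by 61.5% of the genes (81.4% of those called lower and 47.2% of those called higher). It occurs 2 times each in SNAI1, ZEB1 and VIM and 1 time each in SNAI2, TWIST1 and GRHL2, and not in ZEB2, TWIST2, CDH1 and CDH2.

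Genes that work with or downstream of these factors were read as lists. Marker lists aside, 4 genes (GRHL1, GRHL3, WNT5A and WNT5B) are in 2 lists, so the lists are not independent. WNT5B, called lower, is counted among both the mesenchymal and the signal genes. The counts of each list were set beside the 12.5% higher and 11.5% lower of all genes tested. Its median log2 fold change was set beside -0.02 for all genes. The lists hold mostly protein-coding genes, for which these all-gene shares are a low background. Of the 14858 protein-coding genes tested, 2852 were higher and 2369 lower. With a stricter filter for low counts (filterByExpr), 18% of genes were higher and 20.3% lower. In the fit paired by code (the replicate block) the background was 19.5% higher and 17.8% lower. Of 47 tested epithelial junction and keratin genes, 8 were higher (17.0%) and 7 lower (14.9%), with a median of -0.01. GRHL1 is among those higher and GRHL3 among those lower, and the limits of both calls are given with the families below. Without siCTR 0412, 13 were lower. TJP1, the tight junction protein ZO-1, had 159, 158 and 165 CPM in siCSRP2 libraries, against 119, 111 and 116 CPM in siCTR libraries (log2 fold change 0.48). AP1M2, an adaptor for sorting to the basolateral membrane of epithelial cells, rose by 0.73 and the desmosomal plakophilin PKP2 by 0.76. The surface glycoprotein CD24, in contrast, fell by 1.98 on the log2 scale (4.97, 4.88 and 3.94 CPM in siCSRP2 libraries, against 23.1, 17.5 and 13.2 CPM in siCTR libraries). Pairing by code gave 14 higher and 16 lower.

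Of 40 tested mesenchymal genes, 4 were higher (10%) and 13 lower (32.5%), with a median log2 fold change of -0.28. Under pairing by code, 7 were higher and 22 lower, and without siCSRP2 0611, siCSRP2 1311 or siCTR 0611 2 were higher. WNT5B, a Wnt ligand, had 7.14, 6.29 and 6.37 CPM in siCSRP2 libraries, against 23.8, 20.4 and 21.2 CPM in siCTR libraries (log2 fold change -1.73). PDGFRB, the PDGF receptor of mesenchymal cells, was at 6.51, 5.07 and 6.40 CPM in siCSRP2 and at 20.4, 19.2 and 20.2 CPM in siCTR libraries, the collagen gene COL6A1 fell by 1.10 and the receptor kinase gene AXL fell by 1.06. PRRX1, an EMT-inducing homeobox factor picked after its values were seen, fell by 2.28 with 0.335 ± 0.263 CPM in siCSRP2 and 1.54 ± 0.100 CPM in siCTR libraries (SD, n = 3 each). COL1A1, also picked after its values were seen, rose by 0.64. Its partner chain COL1A2, picked likewise, fell by 1.29, with 55.1 ± 7.17 CPM in siCSRP2 and 135 ± 24.8 CPM in siCTR libraries (SD, n = 3 each). COL5A1 was called lower as well (log2 fold change -0.5), and COL3A1 and COL5A2 were not called.

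Corepressors and partners of the EMT factors moved in both directions, with 10 of 40 higher (25.0%) and 9 lower (22.5%), and a median of 0.08. In the paired fit, 18 were higher and 11 lower. The LIM protein WTIP, of the Ajuba family that bridges SNAI1 to its corepressors, rose by 1.07 on the log2 scale (21.7, 21.5 and 25.3 CPM in siCSRP2 libraries, against 11.6, 9.78 and 11.3 CPM in siCTR libraries). The arginine methyltransferase PRMT5 rose by 0.69 and SUZ12, a subunit of the Polycomb repressive complex, by 0.57, while SIN3A, a scaffold of histone deacetylase complexes, fell by 0.64.

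**Figure D4:**
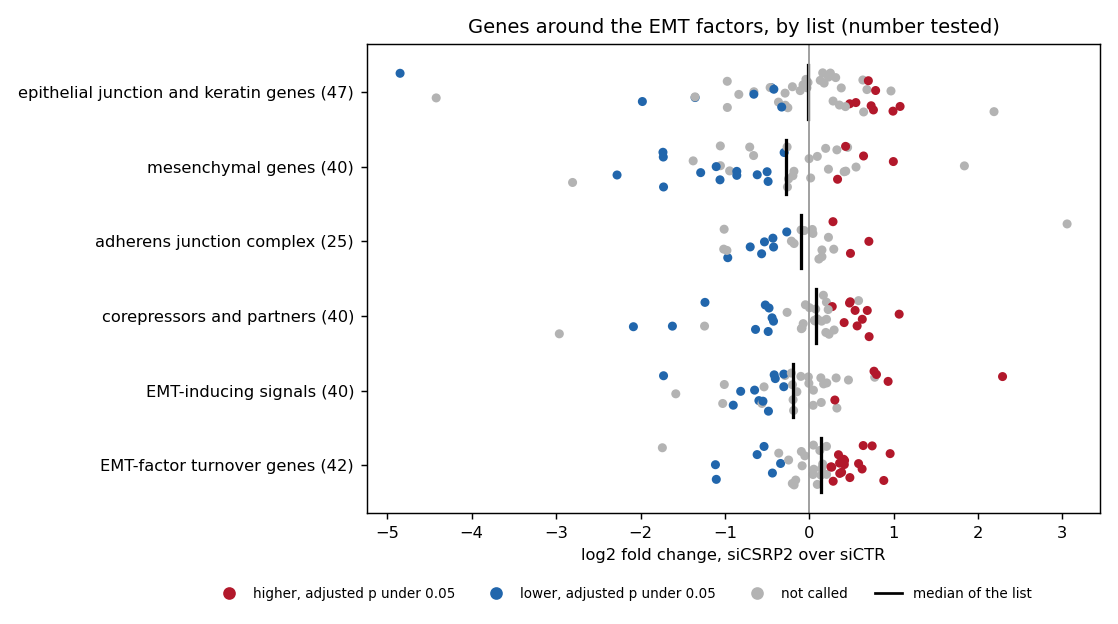
Log2 fold changes (siCSRP2 over siCTR) of the tested genes of 6 lists, 1 point per gene, with called genes coloured and the median of each list as a bar. Of the 6 lists drawn, mesenchymal genes have the lowest median, -0.28, and EMT-factor turnover genes the highest, 0.14, and each of the 6 holds genes called in both directions.

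Genes of EMT-inducing signals were lower in 11 of 40 cases (27.5%) and higher in 5 (12.5%), with a median of -0.19. In the paired fit, 11 were higher and 18 lower, and the higher ones numbered 3 without siCSRP2 0412 or siCSRP2 0611 and 2 without siCTR 0611. TEAD1, the DNA-binding partner of YAP, was at 200, 212 and 231 CPM in siCSRP2 libraries, against 314, 306 and 320 CPM in siCTR libraries (log2 fold change -0.55), and FGFR1 fell by 0.48. PDGFA, a PDGF ligand, rose by 0.93. Ligands and receptors of TGF-β, the best studied inducer of SNAI1, were picked out after their values were seen: TGFB1 averaged 79.0 ± 4.07 CPM in siCSRP2 and 97.4 ± 4.68 CPM in siCTR libraries, TGFB2 145 ± 23.6 and 219 ± 41.4 CPM in these groups, and TGFBR2 196 ± 19.6 and 307 ± 63.6 CPM (SD, n = 3 each). These 3 were called lower (adjusted p = 0.015, 0.0322 and 0.0115). The other 3 genes of this kind in the list were not called: TGFB3 (log2 fold change -0.10, adjusted p = 0.806), TGFBR1 (0.05, 0.747) and TGFBR3 (0.46, 0.645).

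Among 25 tested genes of the adherens junction complex, in which catenins tie cadherins to actin, 3 were higher (12%) and 7 lower (28%), with a median of -0.10. CTNNAL1, an α-catenin-like protein, rose by 0.71 and the armadillo protein PKP4 by 0.49. JUP, which encodes plakoglobin, had 75.5, 88.5 and 75.6 CPM in siCSRP2 libraries, against 110, 129 and 150 CPM in siCTR libraries, a log2 fold change of -0.70. ARHGAP35, a RhoA-inhibiting GTPase activator at junctions, fell by 0.53. The catenin genes CTNNB1 and CTNNA1, picked after their values were seen, fell by 0.42 and 0.27 (adjusted p = 0.00468 and 0.0476), and CTNND1 was not called (log2 fold change -0.18, adjusted p = 0.151). Pairing by code gave 5 higher and 10 lower genes in this list.

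SNAI1 protein is controlled by phosphorylation and ubiquitination, so genes of its turnover and that of the other factors were listed. Of 42 tested, 17 were higher (40.5%) and 6 lower (14.3%), with a median of 0.14. In the paired fit, 20 were higher and 11 lower, and without siCSRP2 1311 11 were higher. CTDSP2, of the small phosphatases that dephosphorylate Snail, had 88.4, 107 and 92.5 CPM in siCSRP2 libraries, against 218, 209 and 191 CPM in siCTR libraries (log2 fold change -1.10). GSK3A, a kinase of the GSK-3 pair that marks Snail for degradation, fell by 1.11. GSK3B, the other kinase of the pair, picked after its values were seen, was not called (log2 fold change 0.20, adjusted p = 0.132). The ubiquitin ligase gene FBXO45, whose product targets EMT factors, had 87.4, 82.6 and 85.7 CPM in siCSRP2 libraries, against 48.3, 44.6 and 45.7 CPM in siCTR libraries (log2 fold change 0.88), and the deubiquitinase gene USP37 rose by 0.96. Protein levels were not measured in these libraries.

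In the families of these genes, GRHL3, a paralog of GRHL2, had 1, 0 and 0 counts in siCSRP2 libraries, against 5, 14 and 13 in siCTR libraries (adjusted p = 0.00101, called lower). It passed the filter through its siCTR libraries only, as GRHL2 did, and its call carries that limit. GRHL1 had 43, 40 and 117 counts in siCSRP2 libraries, against 17, 24 and 31 in siCTR libraries (log2 fold change 1.08, adjusted p = 0.017). The GRHL1 call was lost without siCSRP2 1311 (adjusted p = 0.126) or siCTR 0412 (0.0611). SNAI3-AS1 fell by 1.12 (adjusted p = 0.018), a call lost without siCSRP2 0412 (0.0694), siCSRP2 0611 (0.0664) or siCTR 0412 (0.0722), and MIR34AHG, the host of a miRNA that targets SNAI1, was at -0.68 and missed the threshold (adjusted p = 0.0505). The pseudogenes SNAI1P1 and ZEB2P1, which could share reads with their parents, had 0 counts and 1 count over the 6 libraries.

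Some markers of other cell types were detected in these cells and were lower in siCSRP2 libraries. The summed leukocyte markers were at 9.32 to 11.1 CPM in siCSRP2 and 29.9 to 39.5 CPM in siCTR libraries, nearly all of it CD14 (9.70 ± 0.645 CPM in siCSRP2 and 34.2 ± 4.62 CPM in siCTR libraries, SD, n = 3 each), with PTPRC near 0. The fibroblast markers were at 8.97 to 12.1 CPM in siCSRP2 and 23.5 to 26.3 CPM in siCTR libraries, mostly PDGFRB, and the endothelial markers, mostly PECAM1, at 5.08 to 7.42 CPM in siCSRP2 and 9.75 to 22.0 CPM in siCTR libraries. Of each of these lists 1 gene was called lower (CD14, PDGFRB and PECAM1, the last not without siCSRP2 1311, with an adjusted p of 0.0617, or siCTR 1311, with 0.0522), and their part in the results was not tested. The epithelial markers EPCAM, KRT8, KRT18, KRT19 and CDH1 summed to 1980 to 2140 CPM in siCSRP2 and 1990 to 2490 CPM in siCTR libraries, and CDH1 alone of the 5 was called in the unpaired fit. EPCAM averaged 24.3 ± 1.8 CPM in siCSRP2 and 31.4 ± 6.05 CPM in siCTR libraries (SD, n = 3 each, adjusted p = 0.0604). With the code as a replicate block, EPCAM (log2 fold change -0.36, adjusted p = 0.000135) and KRT19 (-0.20, 0.00518) were called lower. EPCAM was also called lower without siCTR 0412 (-0.51, 0.00284), by DESeq2, with RLE scaling and with no low-count filter. As with the block, p-values of the fit with no low-count filter can be too small.

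Over the 6 libraries, the protein-coding genes whose log2 CPM was most like that of SNAI2 were QDPR and SYNCRIP (Pearson's r of 0.987 and 0.986). They were for ZEB1 R3HDM2 and C1orf21 (0.988 and 0.983), for ZEB2 ADK and DYNC1I2 (0.998 and 0.997) and for VIM the tropomyosin gene TPM4 and BTBD2 (both 0.995). These values are the highest among 10444 genes over the same 6 libraries and are a description.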

How the data were processed

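Poly(A) RNA of 6 cultures of the MDA-MB-231 line was sequenced. As deposited, the table holds raw read counts for each Ensembl gene. The authors aligned paired reads to GRCh38 and took the gene counts of STAR. Its version, annotation and strand setting were not given in the sources used, and labels and methods differ on the kit (standard or stranded). The methods put the harvest later than the labels' 65 hours.

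Genes detected in 2 or more of a group's 3 libraries were tested (23806 of 58395) by edgeR 4.0.16 in R 4.3.3, with TMM scaling (factors 0.989 to 1.03), the robust quasi-likelihood test and the Benjamini-Hochberg adjustment. Standard errors follow from fold changes and F statistics. The 10 genes and the lists were chosen with earlier results of these data known. Named genes are the 10, CSRP2, up to 4 genes of smallest p per list, genes overlapping a member and the 2 most alike genes (mean of at least 5 CPM), besides those said to be picked later. Some named genes are not reported here. Symbols, lengths, transcripts and coordinates come from GENCODE 44, which matched 98.9% of genes. log2 CPM used a prior count of 2.

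No library was a copy of another in its group: chi-square values divided by their degrees of freedom were 12.4 to 48.3. p-values of the main fit measure the spread between libraries. In the fit with the block, those of the members follow the normal curve from the fold change and its standard error. In the fit with no low-count filter, those of CDH1, VIM and ZEB1 do so too. Such p-values take a spread shared over genes and not each gene's own, and can be too small for a gene that varies more. The codes were taken to pair libraries, since every shared-code correlation of deviations (0.459 to 0.744 over 10827 genes) was over 0.1. Other pairs were at -0.674 to 0.114, and siCSRP2 0611 with siCTR 1311, at 0.114, was over 0.1 too. Deviations from a group mean cancel within the group, so the ranges of shared-code and other pairs are not independent. Alternatives were DESeq2 1.42.0, RLE scaling, other filters, exactTest (the test of the study's methods), the block, a fold change of at least 1.5 and leaving out each library. Only the unpaired edgeR fit was run on simulated counts, and these held no effect of the codes.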

Additional observations from a re-analysis of the deposited data

How the results depend on the processing

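Leaving out 1 library moved the log2 fold change of VIM between -0.29 and 0.075, the upper value without siCTR 0412 (adjusted p = 0.733), and that of SNAI1 between -3.03 and -1.88, past the threshold in 3 of 6 cases. It moved SNAI2 between 0.16 and 0.55 and GRHL2 between -4.67 and -2.10, the lower value with siCSRP2 left at 0 counts. With the column code as a replicate block, SNAI2 (0.33) and ZEB2 (0.23) passed the threshold and the members called higher numbered 4; the block changed no other member's call. Among the genes named, KRT18 ranged from -0.12 to 0.121 (without siCTR 0412), GATA3 from -0.21 to 0.091 (without siCTR 1311) and PTPRC from -1.50 to 0.064 (positive without siCSRP2 0412, at 0.022, or siCTR 1311), with none called. The members called lower ranged from 0 to 1 without a library.

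With the block the lists had more calls: epithelial 14 higher and 16 lower, mesenchymal 7 and 22, signals 11 and 18, with 18 corepressors and 5 adherens junction genes higher and 11 turnover genes lower. With a fold change of at least 1.5 (4.58% of all genes tested higher and 7.8% lower), 4 epithelial genes were lower, 2 mesenchymal genes higher, 4 corepressors higher and 4 lower, 5 signal genes lower, 1 adherens junction gene higher and 2 lower, and 5 turnover genes higher and 3 lower. Without a low-count filter (11.4% of all genes lower) 11 epithelial genes were lower. The causes were not tested. With a library left out (8.46% to 13.6% of all genes higher, 8.86% to 12.6% lower), the ranges were 6 to 11 higher and 5 to 13 lower for epithelial, 2 to 5 and 11 to 15 for mesenchymal, 9 to 13 and 7 to 11 for corepressor, 2 to 5 and 8 to 12 for signal, 2 to 4 and 5 to 8 for adherens junction, and 11 to 16 and 5 to 6 for turnover genes. Counts over all genes were 4644 higher and 4229 lower with the block, against 2987 and 2735 without it. MIR34AHG passed in 7 alternatives, EPCAM in 5 and KRT19 in 1. SNAI1 (64 and 340 counts), CDH2 (198 and 66) and GRHL2 (1 and 8) rest on few reads in siCSRP2 and siCTR libraries. For SNAI1 the counting interval of the ratio (0.115 to 0.2) was narrow beside the 3.67-fold spread of siCTR libraries.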
